A study of Drosophila melanogaster with 6 samples.

Results

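Neuropeptides and peptide hormones are cut from larger precursor proteins, and the transcripts of 26 such precursors were followed here in aged male flies fed lithocholic acid (LCA), a secondary bile acid, or control food. A list of 31 precursor genes was drawn up by name. A gene counted as measured when a probe set was annotated to it alone, and of several probe sets the brightest would have been taken. This left 26 genes, each with exactly 1 probe set, among 18769 probe sets and 11982 named genes on the array. AstA, Tk, Dsk, Hug and Pburs were not analysed here. Each of the 6 Affymetrix arrays carried RNA from a pool of 10 whole flies: 3 pools had eaten food with 50 µmol/l LCA and 3 had eaten control food for 30 days. All flies were males of W1118, a strain that serves as wild type although it carries the white eye mutation, and all were 30 days old. Nothing in the labels ties the pools to separate cultures, so each p-value reflects the variation from pool to pool, which may be technical.

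A peptide precursor enters the secretory pathway, is cut at basic residues by prohormone convertases, often receives a C-terminal amide, and is released from dense-core vesicles. In the fly the main sources are neurons and neurosecretory cells of the brain and ventral nerve cord, and enteroendocrine cells of the midgut. Most of the peptides act on G protein-coupled receptors to set feeding, water balance, gut and heart contraction, moulting and sleep. The measured precursors were divided into 6 that midgut enteroendocrine cells as well as neurons are known to make (AstC, CCHa1, CCHa2, Dh31, Mip and NPF), 16 known mainly from the nervous system, and 4 in neither group (AstCC, ETH, Nplp3 and Nplp4). Because whole flies were pooled, a peptide's neuronal and gut sources were measured together, and more cells of a type cannot be told apart from more RNA per cell.

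Peptide transcripts read mostly higher in LCA flies, with CCHa2 and Nplp3 as the clearest exceptions, but all differences were small and no gene passed the adjusted threshold. Of 26 precursors, 19 had a positive difference (73.1%, against 47.9% of all probe sets) and 7 a negative one. Their median was 0.20 on the log2 scale, where the median of all probe sets was −0.0090. Without LCA replicate 3 the precursors' median was 0.10 and that of all probe sets −0.018. limma placed 0 of 18769 probe sets (0%) and 0 of the 26 precursors under an adjusted p of 0.05, and the lowest adjusted p of a precursor was 0.145, for Mip. At an unadjusted p under 0.05, limma counted 10 precursors (38.5%), against 16.1% of all probe sets. Of all named genes, taken with 1 probe set each like the precursors, it was 20.1%. In the upward direction these were 8 precursors (30.8%, background 7.53% of probe sets and 9.63% of named genes). They were Mip, Dh31, NPF, Proc, Crz, Dh44, FMRFa and AstC. In the downward direction they were Nplp3 and CCHa2 (7.69%), close to the background of 8.59% of probe sets and 10.5% of named genes. The diets did not overlap in 9 precursors (34.6%, background 22.5% of probe sets and 26.1% of named genes). Of these, 7 were higher in LCA flies (26.9%, background 9.38% of probe sets and 11.2% of named genes). The other 2 were lower (7.69%, background 13.2% of probe sets and 15% of named genes). The count of 10 was 6 without LCA replicate 3, where the share of all probe sets was 8.88%, and 6 without control replicate 2, where it was 9.58%. The count of 9 became 16 without control replicate 1, where 32.7% of all probe sets did not overlap.

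**Figure D1:**
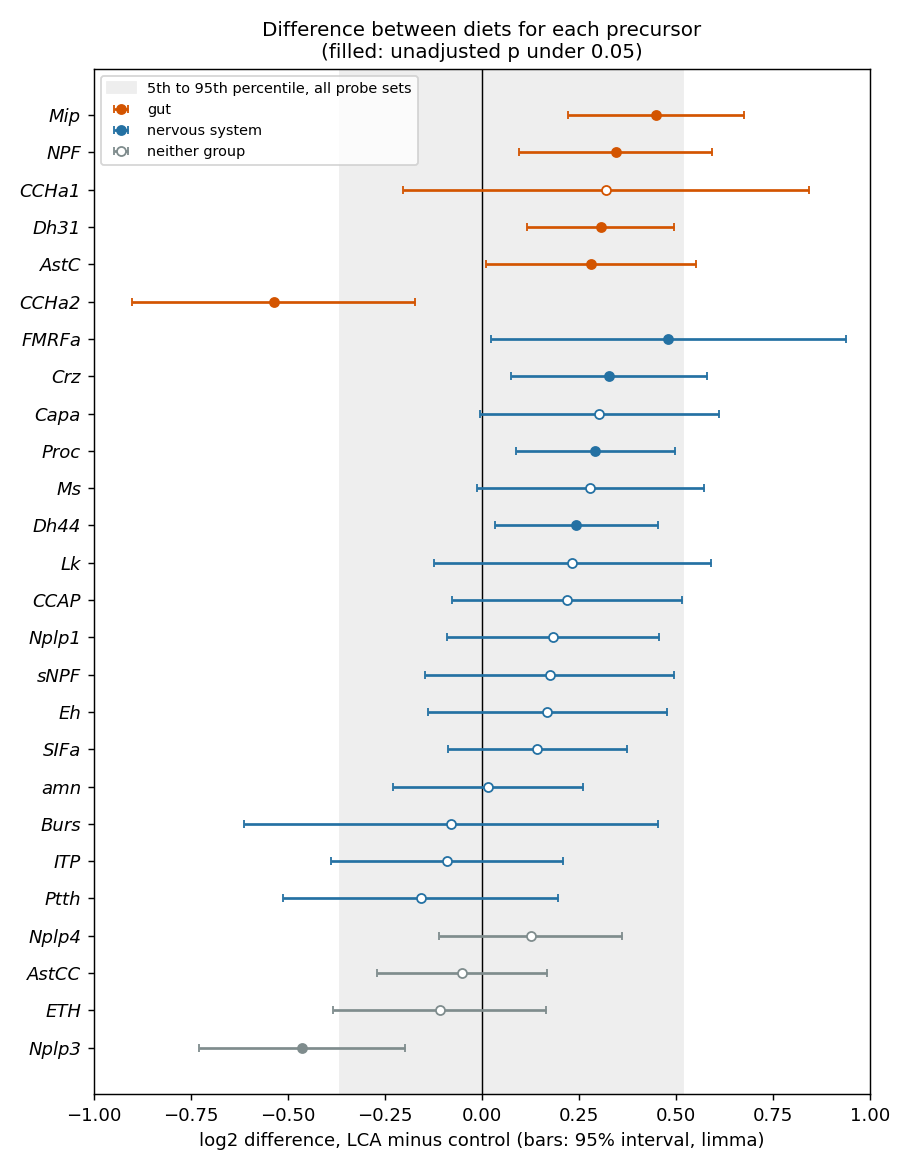
Log2 difference between LCA and control flies (x axis) for each of the 26 precursors, coloured by group, with limma's 95% interval as bars and filled points at an unadjusted p under 0.05. All gut precursors other than CCHa2 lie right of 0, Nplp3 and CCHa2 lie furthest left, and the grey band holds the middle 90% of all probe sets (−0.37 to 0.52).

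Among the gut peptides, Mip gave the lowest p of the list. It encodes the myoinhibitory peptides (allatostatin B), which quiet gut muscle and act on the sex peptide receptor. Its log2 signal was 8.65, 8.76 and 8.92 in LCA flies, against 8.38, 8.32 and 8.28 in control flies. All LCA pools lay above all control pools, and the difference was 0.45 ± 0.10 (SE, n = 3 each; limma, adjusted p = 0.145), a 1.36-fold higher signal with a 95% interval of 0.22 to 0.67 on the log2 scale. Dh31, the calcitonin-like diuretic hormone that also drives gut contraction, read 8.71, 8.70 and 8.76 in LCA flies, against 8.50, 8.39 and 8.36 in control flies. The pools of a diet lay close together, with a within-diet spread at the 7.59th percentile of all probe sets, and the groups did not overlap (difference 0.31 ± 0.08, SE; adjusted p = 0.188). NPF, the fly relative of vertebrate neuropeptide Y, made in brain and midgut and known for its part in feeding, had 7.66, 7.84 and 7.96 in LCA flies, against 7.37, 7.51 and 7.54 in control flies. Here too every LCA pool was above every control pool, with a difference of 0.34 ± 0.10 (SE; adjusted p = 0.228).

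The other gut precursors were less uniform. AstC, a somatostatin-like peptide, read 10.16, 10.23 and 10.10 in the LCA pools and 10.10, 9.75 and 9.79 in the control pools. Control replicate 1 reached the level of the LCA pools, and the difference of 0.28 ± 0.11 (SE) had an adjusted p of 0.301. CCHa1, a peptide of brain and midgut, read 6.16, 5.79 and 6.16 in LCA flies, against 6.20, 5.55 and 5.39 in control flies. Its highest value belonged to control replicate 1, and its spread within a diet exceeded that of 90.1% of probe sets. The difference of 0.32 ± 0.22 (SE; adjusted p = 0.493) became 0.56 without that pool and 0.16 without control replicate 3.

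CCHa2 was the 1 gut precursor with a negative difference. This hormone is known from larvae, in which gut and fat body release it in response to nutrients and it stimulates the insulin-producing cells of the brain. Its log2 signal was 9.24, 9.07 and 8.68 in LCA flies, against 9.48, 9.66 and 9.46 in control flies. Every LCA pool was below every control pool, LCA replicate 3 lowest, and the signal in LCA flies was 0.689 times that in control flies (log2 difference −0.54 ± 0.15, SE; 95% interval −0.90 to −0.17; limma, adjusted p = 0.210). Leaving out any pool kept the difference between −0.66 and −0.38. Markers of fat body were lower in the same arrays: 6 of 6 had a negative difference, with a median of −0.27. The mean log2 signal of these markers ran from 9.64 to 10.47 in LCA arrays, against 10.57 to 10.88 in control arrays, and LCA replicate 3 was lowest there as well. The widest difference among them was that of Cyp4g1 (−2.07 ± 0.58, SE), a gene known mainly from oenocytes. Without it the mean of the other 5 ran from 9.54 to 10.04 in LCA arrays, against 10.09 to 10.27 in control arrays, and the difference in that mean was −0.35, against −0.63 with all 6. Among these other 5, Lsd-1 differed most (−0.87 ± 0.18, SE). The diets overlapped in apolpp, Fbp1 and Lsp2, and Fbp1 lay under the median of every array. The part of these markers in the CCHa2 difference was not tested.

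Nplp3, a neuropeptide-like precursor that was identified by peptide mass spectrometry, was the other precursor with a negative difference at an unadjusted p under 0.05. It had 8.11, 7.92 and 7.85 in LCA flies, against 8.35, 8.33 and 8.59 in control flies. The groups were apart by −0.46 ± 0.11 (SE; limma, adjusted p = 0.170), a signal 0.725 times that of control flies. Nplp4, found in the same way, read 6.05, 5.85 and 6.07 in the LCA pools and 5.97, 5.86 and 5.77 in the control pools, which overlapped (0.13 ± 0.10, SE; 95% interval −0.11 to 0.36; 0.076 to 0.20 with 1 pool left out).

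In the nervous system group, 13 of 16 precursors had a positive difference, with a median of 0.20 that was 0.10 without LCA replicate 3. By limma 4 had an unadjusted p under 0.05, all higher (25%). The background was 16.1% of probe sets and 20.1% of named genes in either direction, and 7.53% and 9.63% upward. Crz encodes corazonin, a relative of adipokinetic hormone made by brain neurosecretory cells and, in males, by neurons of the ventral nerve cord that act in ejaculation. It read 7.72, 7.79 and 7.98 in LCA flies, against 7.51, 7.38 and 7.63 in control flies, without overlap (0.33 ± 0.11, SE; limma, adjusted p = 0.247). Proc, the precursor of proctolin, which stimulates muscle contraction, read 7.62, 7.70 and 7.73 in the LCA pools and 7.45, 7.45 and 7.28 in the control pools. These groups also did not overlap (0.29 ± 0.09, SE; adjusted p = 0.224). Dh44, a diuretic hormone related to corticotropin-releasing factor that brain neurosecretory cells make, read 6.99, 7.03 and 7.20 in LCA flies, against 6.85, 6.79 and 6.86 in control flies. All LCA pools were higher, by a difference of 0.24 ± 0.09 (SE; adjusted p = 0.278).

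FMRFa had the widest difference of the higher precursors and also a wide spread. It encodes several FMRFamide-related peptides that modulate muscle. The signal was 9.13, 8.60 and 9.26 in LCA flies, against 8.70, 8.28 and 8.57 in control flies. LCA replicate 2 lay among the control pools, so the groups overlapped, and the difference of 0.48 ± 0.19 (SE; limma, adjusted p = 0.299) had a 95% interval from 0.02 to 0.94. Capa, whose peptides come from abdominal neurosecretory cells and act on the renal tubules, read 7.81, 7.997 and 8.17 in the LCA pools and 7.80, 7.78 and 7.49 in the control pools. The lowest LCA pool was just above the highest control pool (0.30 ± 0.13, SE; 95% interval −0.01 to 0.61). Ms, encoding myosuppressin, an inhibitor of gut and heart muscle, read 10.25, 10.39 and 10.52 in LCA flies, against 10.32, 9.97 and 10.03 in control flies. Control replicate 1 lay among the LCA pools, and the difference was 0.28 ± 0.12 (SE; 95% interval −0.01 to 0.57).

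In 5 further precursors, of feeding, water balance and brain signalling, the diets overlapped. Lk, encoding leucokinin, which stimulates fluid secretion by the renal tubules, ran from 7.34 to 7.47 in LCA flies, against 6.83 to 7.37 in control flies (0.23 ± 0.15, SE). Control replicate 3 alone held the low value, and without it the difference was 0.062. ITP, the ion transport peptide, an antidiuretic hormone, read 9.38, 9.25 and 9.42 in the LCA pools and 9.68, 9.38 and 9.25 in the control pools. These overlapped (−0.090 ± 0.13, SE), and without control replicate 1 the difference was 0.033. sNPF, the short neuropeptide F precursor, which is known to promote feeding, differed by 0.17 ± 0.14 (SE), with a 95% interval of −0.15 to 0.50, and by 0.081 without LCA replicate 3. SIFa, a peptide of a small set of brain neurons, differed by 0.14 ± 0.10 (SE; 95% interval −0.09 to 0.37; 0.079 without control replicate 2). Nplp1, a precursor of several brain peptides, read 9.99, 10.15 and 10.31 in LCA flies, against 10.06, 9.81 and 10.03 in control flies, with overlap (0.18 ± 0.12, SE; 0.10 without LCA replicate 3 or without control replicate 2).

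Hormones of moulting and metamorphosis had signals under the median of every array in these adults, as did amn, AstCC, CCHa1, SIFa and Nplp4. Ecdysis-triggering hormone (ETH), released by the Inka cells of the tracheae, ran from 3.20 to 3.61 in the LCA pools and from 3.46 to 3.55 in the control pools. Eclosion hormone (Eh), its partner from brain neurons, ran from 3.28 to 3.69 in LCA flies, against 3.16 to 3.43 in control flies. The diets overlapped in ETH (−0.11 ± 0.12, SE; −0.0068 without LCA replicate 1) and in Eh (0.17 ± 0.13, SE; 0.056 without LCA replicate 3 and −0.017 with a floor on low values), and the mean signals stood at the 20.9th (ETH) and 18.9th (Eh) percentile of all probe sets. CCAP, a cardioactive peptide that also takes part in ecdysis, ran from 5.13 to 5.50 in the LCA pools and from 4.92 to 5.16 in the control pools (0.22 ± 0.13, SE; 0.11 without LCA replicate 3). Burs, a bursicon subunit that drives cuticle tanning after eclosion, read 5.07, 5.01 and 5.37 in LCA flies, against 5.75, 5.05 and 4.90 in control flies. Control replicate 1 was 0.77 above the mean of the other control pools, and the difference of −0.079 ± 0.23 (SE) became 0.18 without it. Ptth, the brain hormone that acts on the larval prothoracic gland, ran from 5.69 to 6.26 in the LCA pools and from 6.04 to 6.12 in the control pools, so that the LCA pools enclosed the control pools (−0.16 ± 0.15, SE; −0.33 without LCA replicate 2 and −0.044 without LCA replicate 3).

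The lowest signal of the list belonged to amn, a memory gene whose product is related to a vertebrate neuropeptide. It ran from 2.60 to 2.89 in LCA flies, against 2.62 to 2.81 in control flies, at percentile 0.81 of all probe sets. AstCC, a paralog of AstC, ran from 3.37 to 3.47 in the LCA pools and from 3.35 to 3.59 in the control pools. The diets overlapped in amn (0.016 ± 0.10, SE; the sign was negative under median centring, under a floor on low values and without LCA replicate 1 or control replicate 1) and in AstCC (−0.053 ± 0.09, SE; 0.013 without control replicate 1). The deposited values carry no detection call, so a low signal may be background. In all, 16 precursors lay above the median of every array (5 of 6 in the gut group, 10 of 16 in the nervous system group and 1 of 4 in neither group), and the other 10 lay under the median of every array. Of all named genes, 61.6% lay above every array's median, and of the precursors 61.5% did. Under every array's median lay 3609 of 11982 named genes. Probe sets differ in brightness for the same amount of RNA, so these positions do not rank the precursors by abundance.

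**Figure D2:**
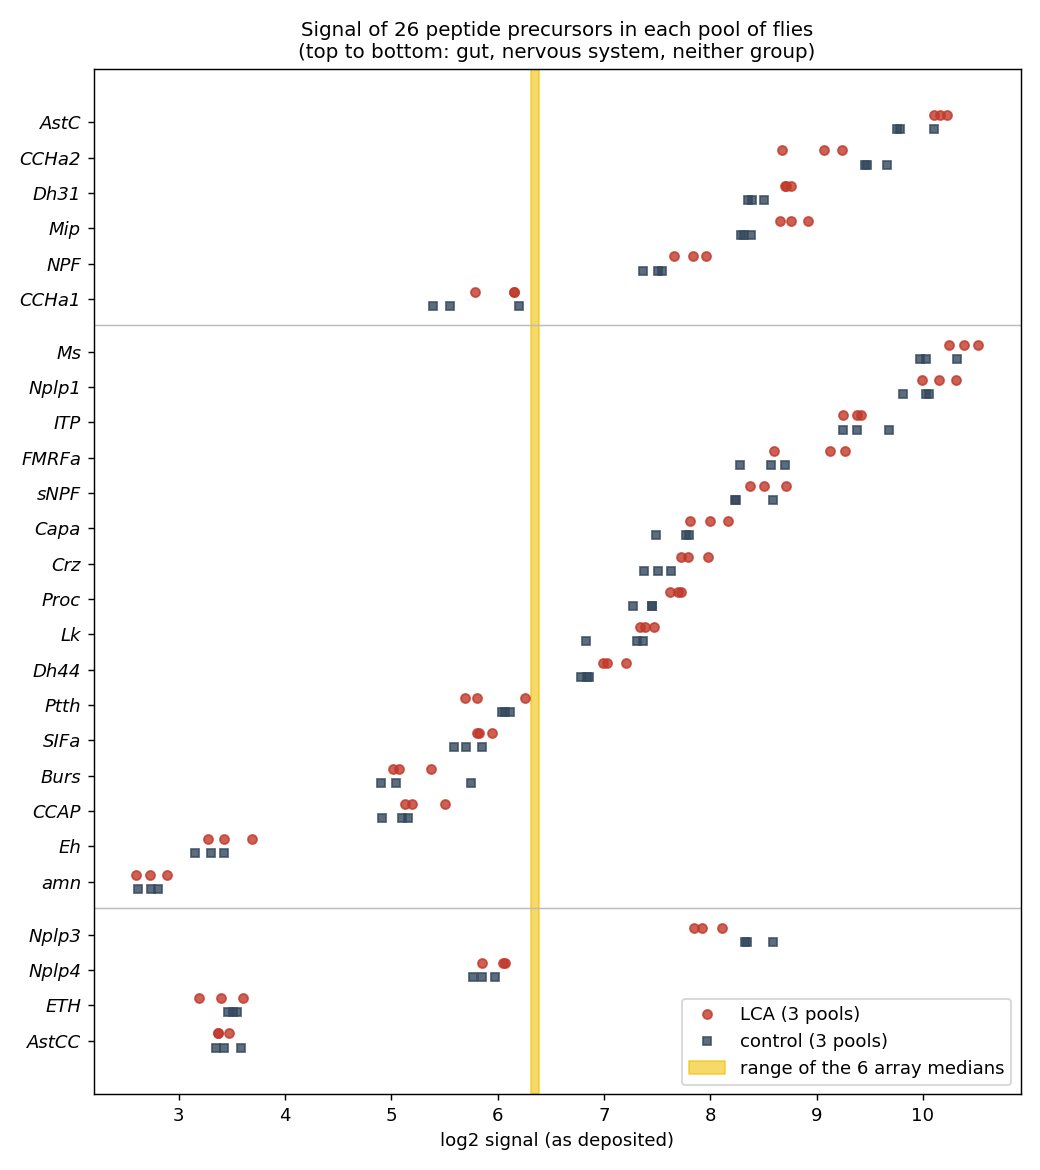
Deposited log2 signal (x axis) of each precursor in the 3 LCA pools (circles) and the 3 control pools (squares), in the gut group, the nervous system group and neither group from top to bottom. The yellow band spans the 6 array medians (6.31 to 6.39), and 16 precursors lie to its right in all pools and 10 to its left.

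The order of the arrays was similar in gut and nervous system precursors. The gut group had a median difference of 0.31 and the nervous system group of 0.20, and the gap between the medians was 0.11, given as a description with no test. It was 0.045 among probe sets above the median signal and 0.18 without LCA replicate 3. Relative to each gene's own mean, the gut group's median deviation was 0.12, 0.16 and 0.24 in LCA replicates 1 to 3, against 0.0080, −0.21 and −0.23 in control replicates 1 to 3. The nervous system group's was 0.038, 0.041 and 0.25 in LCA replicates, against 0.011, −0.16 and −0.16 in control replicates. By this median every LCA array was above every control array in both groups, with control replicate 1 nearest to the LCA arrays. By the mean log2 signal of the nervous system group, LCA replicates 1 and 2 (7.064 and 7.055) were below control replicate 1 (7.069), and over all 26 precursors the median deviation of these LCA pools (0.041 and 0.021) was below that of control replicate 1 (0.043). LCA replicate 3 held the highest value of 16 precursors, and the lowest values of 11 and 8 precursors fell in control replicates 3 and 2.

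General neuron markers showed a similar pattern across the arrays. All 11 measured markers had a positive difference, with a median of 0.22. By limma 4 had an unadjusted p under 0.05, all higher (36.4%). The background was 16.1% of probe sets and 20.1% of named genes in either direction, and 7.53% and 9.63% upward. The lowest p of the neuron markers was that of nSyb (0.38 ± 0.08, SE), a synaptic vesicle protein. Their median deviation was 0.070, 0.038 and 0.22 in LCA arrays, against 0.11, −0.20 and −0.27 in control arrays, so that control replicate 1 lay above LCA replicates 1 and 2. Their mean log2 signal ran from 8.48 to 8.63 in LCA arrays and from 8.20 to 8.51 in control arrays, and of the defining neuron markers measured (elav, nSyb and brp) all lay above the median of every array. Of 5 enteroendocrine markers, which also mark neurons in part, with 7B2 and IA-2 also counted among the processing and release genes, 4 were higher (median 0.16), with a mean log2 signal of 7.59 to 7.70 in LCA arrays, against 7.45 to 7.60 in control arrays. They split: besides 7B2, pros differed by 0.31 ± 0.13 (SE), IA-2 by 0.16 ± 0.13 (SE) and Poxn by 0.011 ± 0.20 (SE). The marker tap was lower without overlap (−0.24 ± 0.08, SE), but its signal, at the 1.09th percentile of all probe sets, may be background. The part of both lists in the peptide differences was not tested.

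Other tissues differed between the arrays too. All 11 testis markers were higher in LCA flies (median 0.55), with a mean log2 signal of 9.18 to 9.36 in LCA arrays and 8.31 to 9.25 in control arrays, lowest in control replicate 1. Of 10 listed photoreceptor markers only 4 were measured, and all 4 were higher (median 0.46). Their mean log2 signal ran from 11.78 to 11.87 in LCA arrays, against 11.33 to 11.42 in control arrays. All 6 accessory gland markers were higher as well (median 0.23, mean 12.43 to 12.64 in LCA arrays, against 12.19 to 12.46 in control arrays). Enterocyte markers split, with 4 of 7 higher (median 0.032; 9.65 to 10.78 in LCA arrays, against 9.80 to 10.64 in control arrays). The log2 difference between 3′ and 5′ control probe sets, a sign of RNA integrity, averaged over 4 pairs, was 3.30, 3.28 and 3.43 in LCA arrays, against 3.30, 2.90 and 3.09 in control arrays. On the first principal component of all probe sets control replicate 1 stood apart at −42.7, where the LCA arrays lay at 7.43 to 21.4 and the other control arrays at −15.4 and 11.97. In that array 21 of 26 precursors and 11 of 11 neuron markers read above the mean of the other control arrays, and 0 of 11 testis markers did. Their part in the peptide differences was not tested.

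**Figure D3:**
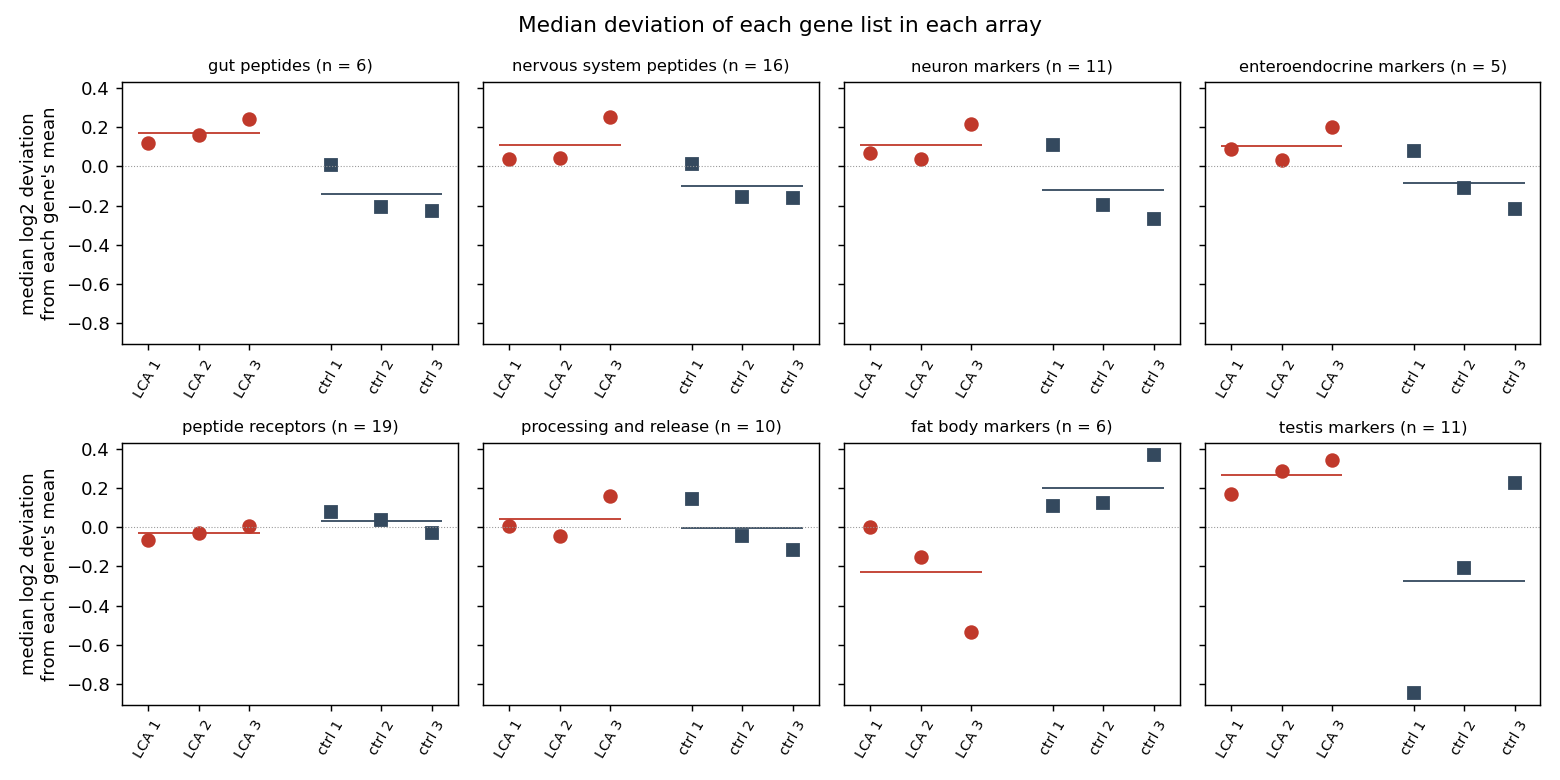
Median log2 deviation of each gene list from its genes' own means (y axis) in the 3 LCA arrays (circles, left) and the 3 control arrays (squares, right), with the mean of each diet as a line. In gut peptides, nervous system peptides and neuron markers control replicates 2 and 3 lie lowest and control replicate 1 nearer to the LCA arrays, while fat body markers run the other way and receptors stay near 0.

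Receptors for these peptides were mostly lower or close to their control level. Of 31 listed receptors 19 were measured, of which 14 had a negative difference and 5 a positive one, with a median of −0.087. At an unadjusted p under 0.05, limma counted 2 receptors, both lower (10.5%). That was the downward share of named genes (10.5%) and close to that of probe sets (8.59%). In either direction the background was 16.1% of probe sets and 20.1% of named genes. The 2 receptors were rk, the bursicon receptor, which read 3.49, 3.44 and 3.27 in LCA flies, against 3.74, 3.66 and 3.72 in control flies (−0.30 ± 0.09, SE; limma, adjusted p = 0.215), and Lkr, the leucokinin receptor, with 6.005, 5.79 and 5.65 in the LCA pools and 6.48, 6.04 and 6.04 in the control pools (−0.37 ± 0.15, SE; adjusted p = 0.307). Every LCA pool was below every control pool in both genes, and the signal of rk was under every array's median. The receptors next in p were PK1-R, a pyrokinin receptor (−0.21 ± 0.11, SE), Dh44-R2, a Dh44 receptor (−0.26 ± 0.14, SE), SPR, the receptor of sex peptide and of the Mip peptides (−0.15 ± 0.10, SE), and AstC-R1, an AstC receptor (0.15 ± 0.10, SE). Most receptor signals were low: 13 of 19 lay under the median of every array. Of all probe sets 8843 of 18769 did, and of all named genes 3609 of 11982.

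Genes that process and release peptides split. Of 10 measured, 4 were higher and 6 lower (median −0.042). At an unadjusted p under 0.05 by limma lay 16.1% of all probe sets and 20.1% of all named genes. Upward it was 7.53% of all probe sets and 9.63% of all named genes. Of the processing and release genes 2 lay there (20.0%), both higher. The first was 7B2, the helper protein of the prohormone convertase amon, with 10.11, 10.20 and 10.29 in LCA flies, against 9.77, 9.84 and 9.76 in control flies. All LCA pools were above all control pools (0.41 ± 0.08, SE; limma, adjusted p = 0.137). The second was Pal2, a lyase that completes the C-terminal amide, with 9.67, 9.70 and 9.80 in LCA flies, against 9.45, 9.39 and 9.41 in control flies (0.31 ± 0.08, SE; adjusted p = 0.178). Phm, the hydroxylase of the preceding amidation step, read 10.66, 10.66 and 10.78 in LCA flies, against 11.11, 10.95 and 10.74 in control flies, with overlap (−0.23 ± 0.11, SE). The convertase amon differed by 0.23 ± 0.12 (SE), the furin Fur2 by −0.20 ± 0.10 (SE) and the carboxypeptidase svr by −0.24 ± 0.13 (SE).

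**Figure D4:**
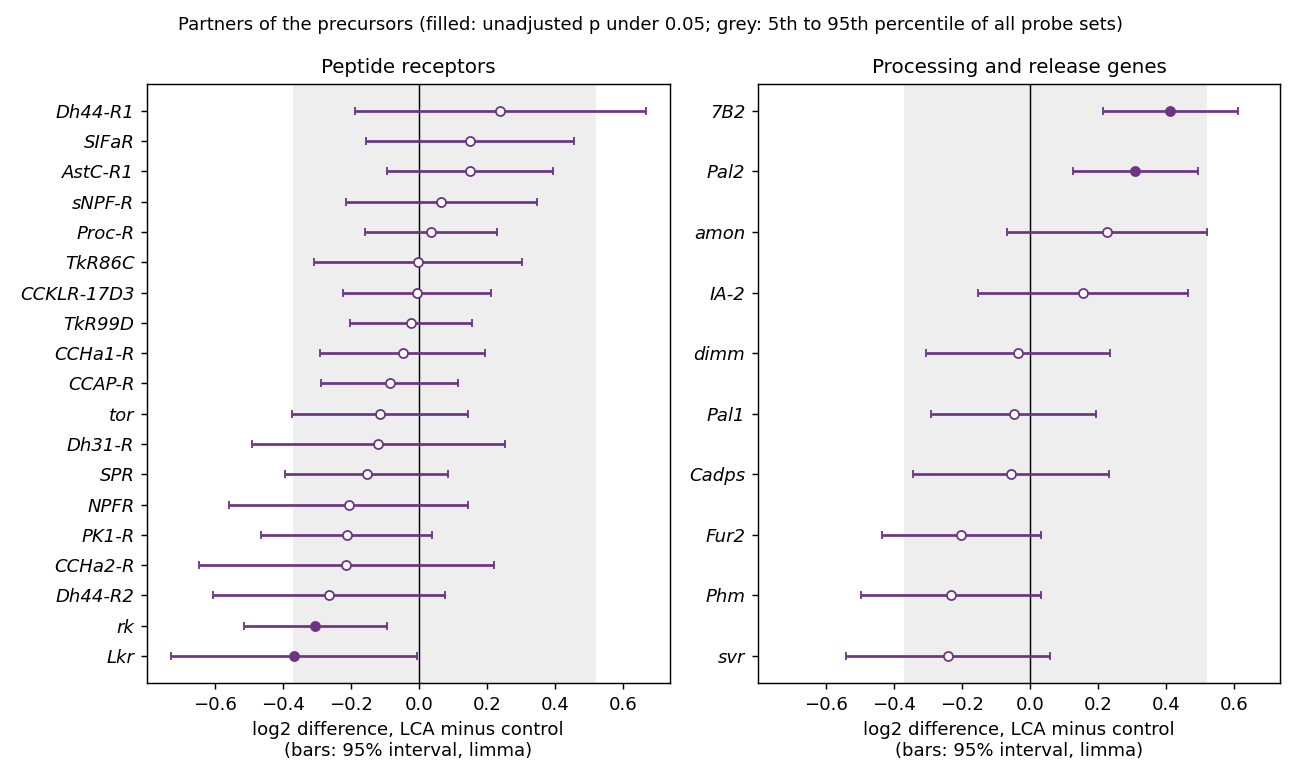
Log2 difference between LCA and control flies (x axis) for 19 peptide receptors (left) and 10 processing and release genes (right), with limma's 95% interval as bars and filled points at an unadjusted p under 0.05. Lkr and rk lie left of 0, 7B2 and Pal2 lie right of it, and the intervals of the other genes include 0.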

How the data were processed

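Transcripts were measured on 6 one-colour arrays from 1.5 µg of total RNA each, per the labels' protocols. The authors deposited log2 signals per probe set, recognised as log2 by their range (2.32 to 14.6). How probes were summarized and normalized is not given in the sources used here. Sorted values of the arrays lay within 0.10 of each other's mean, so a shift shared by most transcripts would not show. Probe sets were named through GEO's platform annotation, updated through RefSeq gene IDs (assembly Release 6 plus ISO1 MT): 13647 had 1 symbol, 402 several and 4720 none here. The 183 array controls were left out of the tests. Sequence features of the precursors were not analysed here.

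LCA minus control was fitted by lmFit and eBayes of limma 3.58.1, run in R 4.3.3, two-sided and with no covariate, over 18769 probe sets with Benjamini-Hochberg adjustment over all of them. SE is limma's moderated one. The fit was checked on simulated data, with set changes wider than the difference of any precursor here. The number of arrays limits the precision. The members and lists were chosen with earlier results of these data known, so no list was tested. All measured members are named, and of the receptor and processing lists the 6 genes with the lowest p. Of the markers, nSyb, elav, brp, the enteroendocrine markers, Fbp1, Cyp4g1, Lsd-1, apolpp and Lsp2 were named after their values were seen. Alternatives were scaling, a filter, a floor, the variance prior, the replicate block, the mean of a gene's probe sets (identical here, with 1 probe set each) and leaving out each pool; the fat body list without Cyp4g1 was added after its values were seen.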

Additional observations from a re-analysis of the deposited data

How the results depend on the processing

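Of 10 precursors at an unadjusted p under 0.05 by limma, 6 (Mip, Dh31, NPF, Proc, CCHa2 and Nplp3) stayed there under all 13 alternatives. These reuse the same arrays, and the mean of a gene's probe sets was identical to the main fit. How many of all probe sets stayed there was not counted, so the 6 have no background. Under any of the alternatives 0 precursors passed limma's adjusted threshold (lowest adjusted p 0.0699, Mip without control replicate 3). Over all probe sets, 6 passed the adjusted threshold when low values were raised to the 25th percentile of their array (0 otherwise), and 1948 had an unadjusted p under 0.05 when only probe sets above the median signal were tested (3026 otherwise), a test on fewer probe sets. The gap between the gut and nervous system medians was 0.045 there. Leaving out 1 pool at a time gave 1666 to 4928 probe sets at an unadjusted p under 0.05, (8.88% to 26.3% of all), 6 to 14 precursors, 9 to 16 precursors without overlap (28.6% to 45.2% of all probe sets; without control replicate 3, 9 precursors against 45.2%), a gap of 0.065 to 0.18, and a median of 0.10 to 0.26 for all precursors and for the nervous system group. In 14 of 26 precursors, 0 of them among the 10, the difference moved by over 1.5 times or changed sign without some pool. The 10 were picked by p on these same arrays, which favours steady differences. The same was not counted over all probe sets, so this contrast is no sign of robustness. Precursors near 0 changed sign. With median centring amn was −0.033. Leaving out 1 pool gave −0.060 to 0.086 for amn and −0.24 to 0.18 for Burs. It gave −0.18 to 0.033 for ITP and −0.11 to 0.013 for AstCC. The cause of these changes was not tested. With the floor amn, AstCC and ETH shared a difference of −0.022, since all their values were raised to the floor of their array. Eh, at the 18.9th percentile of signal, was 0.17 without the floor and −0.017 with it. Array medians ran from 6.38 to 6.39 in LCA arrays, against 6.31 to 6.35 in control arrays. Median centring, which removes this gap, lowered the precursors' median to 0.15, where that of all probe sets was −0.057. By limma it left 5 higher and 2 lower precursors at an unadjusted p under 0.05, where 17% of all probe sets lay. Among these probe sets it raised the share of lower ones to 71.1%, from 53.3%, and quantile normalization gave 61.1%. With the replicate block, which pairs LCA and control pools of the same number, 9 precursors and 3535 probe sets had an unadjusted p under 0.05 and 43.4% of these probe sets were lower. No label ties the numbers of the 2 diets together. Deviations of same-numbered pools correlated at 0.26, −0.02 and 0.02, which with 3 pools per diet can neither show nor exclude a pairing. The block changes the spread and not the differences, with 1 pool of each diet per number. Signals without a detection call limit what the 10 dim precursors can show.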
